A study of Mus musculus with 8 samples.

Results

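Matrix proteases and their inhibitors are the enzymes that cut extracellular matrix and cell surface proteins, together with the proteins that hold them in check. Members were taken by gene symbol: the matrix metalloproteases (Mmp), the membrane-bound ADAM proteases (Adam), the secreted ADAMTS proteases and ADAMTS-like proteins (Adamts, Adamtsl), the tissue inhibitors of metalloproteases (Timp), Reck, and the plasminogen activator genes Plau, Plaur and Plat. The rule found 76 genes with 136 probes, of 17711 genes named on the array. They comprised 20 Mmp, 27 Adam, 21 Adamts and Adamtsl, 5 Timp or Reck and 3 plasminogen activator genes.

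As background, metalloproteases are made as inactive precursors that hold a zinc ion in the active site, and TIMPs block the active enzymes. Urokinase and tissue plasminogen activator turn plasminogen into plasmin, which digests fibrin and matrix and can activate metalloprotease precursors. ADAM proteases cut the outer parts off membrane proteins, and Adam10 is known to cut ephrins at contacts between cells that carry ephrins and cells that carry Eph receptors. In the palate, matrix turnover accompanies the growth and fusion of the shelves.

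The samples were primary mouse embryonic palate (MEP) cells from the palatal shelves of E13.5 embryos of strain CBA;C57BL6 N2, grown in medium with serum to passage 1. In 4 samples, cells received pre-clustered ephrin-B1-Fc at 2 ug/ml for 60 min (induced), and 4 samples held uninduced cells. The labels call the uninduced samples a control induction, and they state neither whether clustered Fc alone was given nor whether replicates were separate cultures, so p-values measure the spread between these samples. Each sample was 1 Illumina bead array. Replicate 1 of both groups shared slide 1, replicate 2 of both shared slide 2, and replicates 3 and 4 of both shared slide 3. Between 15303 and 17362 of 46632 probes (32.8% to 37.2%) were above background on an array, and the number of arrays limits the precision. Of the palatal mesenchyme markers fixed for this check, 11 of 11 were measured. For other cell types the counts were 3 of 11 for epithelium (Krt8, Krt14 and Krt18), 9 of 12 for macrophages, 2 of 7 for endothelium, 1 of 8 for neutrophils or mast cells, 1 of 6 for skeletal muscle, 4 of 6 for cartilage or bone and 3 of 5 for glia or neurons. Some of these markers had no probe: probes existed for 10 macrophage, 7 neutrophil or mast cell, 5 cartilage or bone and 3 glia or neuron markers. The summed macrophage signal was 728 to 1389 on induced and 836 to 1305 on uninduced arrays, on a linear scale. In such mixed RNA, fewer cells of a type and less RNA per cell cannot be told apart.

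Measured transcripts covered 41 of the 76 genes. A gene counted as measured when a probe was above background (detection p under 0.05 against the negative control beads) on at least 4 of the 8 arrays. Measured were 12 Mmp, 11 Adam, 11 Adamts or Adamtsl, 4 of 5 Timp or Reck genes and all 3 plasminogen activator genes, and 34 of the 41 were above background on all 8 arrays. The share measured was 53.9% of members, against 53.1% of all named genes. Among the 35 genes not measured, 32 were above background on none of the 8 arrays with any probe, while Adamts8 reached it on 3 arrays and Adamts17 and Adamts19 on 1 each. They included the sperm surface genes Adam2 and Adam3, the macrophage elastase gene Mmp12, matrilysin (Mmp7), the neutrophil collagenase gene Mmp8, enamelysin (Mmp20), Adam8, Adamts9 and Timp4. A probe not above background gives no level at this sensitivity, and does not show that the gene is silent.

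After 60 min of ephrin-B1, no measured gene of the group passed the test. Tested with limma, 0 of 41 were called without a block, and the count was also 0 once the slide or the replicate number entered the model (adjusted p under 0.05, Benjamini-Hochberg over 9396 genes). In the same order these fits called 0.0319%, 0.128% and 0.532% of all genes. At an unadjusted p under 0.05 the fit without a block held 1 member (Adam4), beside 1.27% of all genes. With the replicate block it held 7 (17.1%), namely Plau, Plaur, Plat, Mmp10, Mmp17, Timp3 and Adam4, beside 8.35% of all genes. The smallest adjusted p of a member was 0.9999 without a block, 0.727 in the slide-block fit and 0.254 in the replicate-block fit. Differences below are in log2 units, induced minus uninduced, and each SE is from the fit without a block. The median difference was -0.03 over the 41 members and -0.0015 over all 9396 genes. Of the members 17 (41.5%) had a higher and 24 a lower mean in induced cells, beside 49.2% of all genes with a higher mean. On slides 1 and 2 alone the split was 24 higher and 17 lower, with a median of 0.024, so the members had no settled direction on balance.

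**Figure D1:**
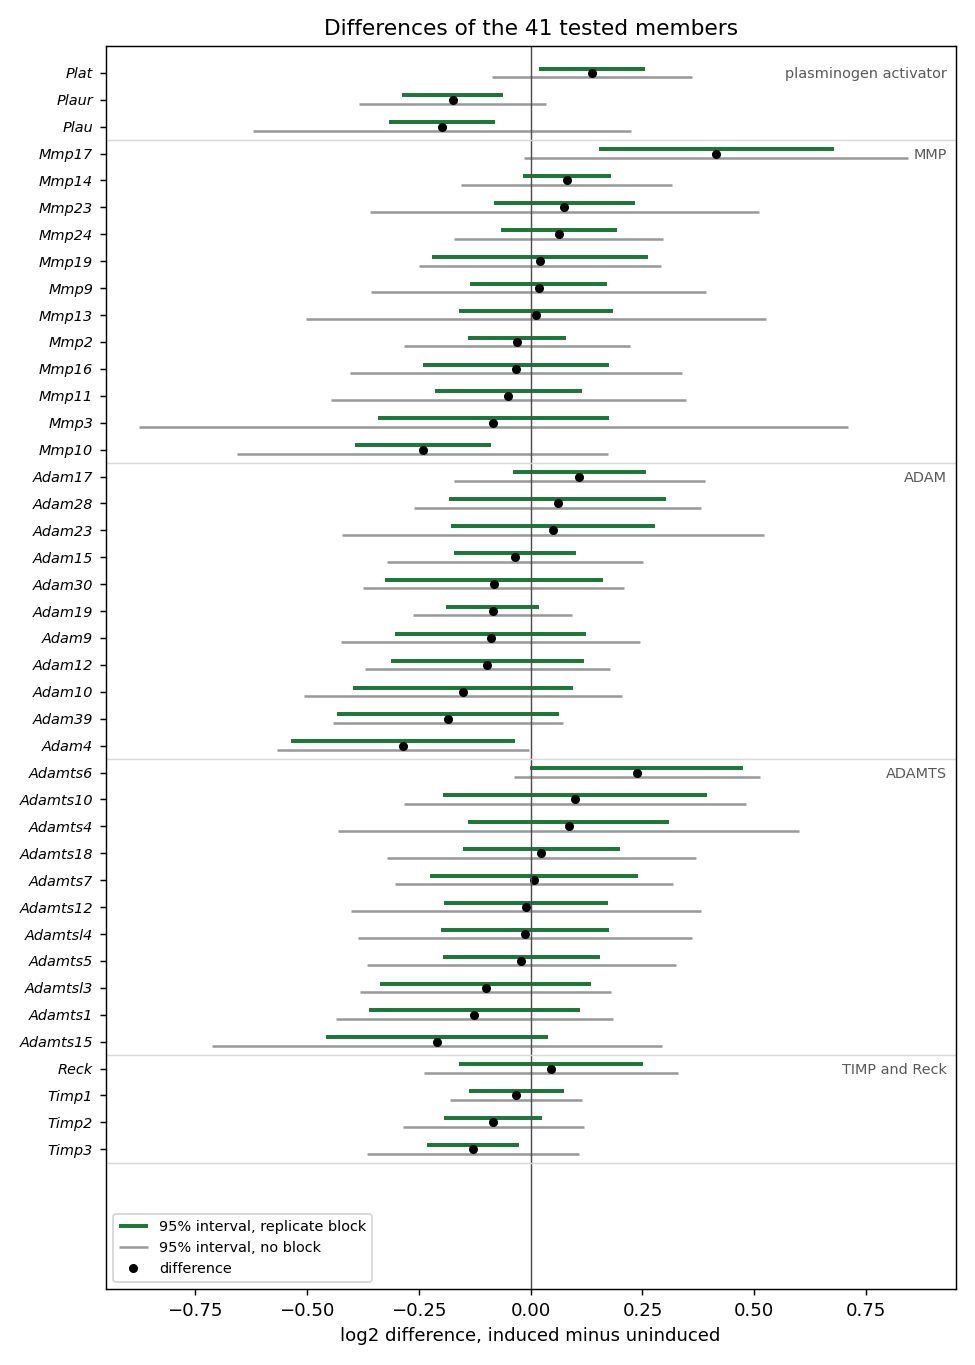
Log2 difference (horizontal axis, induced minus uninduced) of the 41 measured members, sorted within each family. Points are differences of group means over 4 arrays each, grey lines the limma 95% interval without a block and green lines that with the replicate block; all points lie between -0.29 (Adam4) and 0.42 (Mmp17).

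The size of change that these arrays would show can be read from the intervals. With the replicate block the 95% interval stayed within 0.5 log2 units either way (1.41-fold) for 39 of 41 members, with Mmp17 and Adam4 as the exceptions, and without a block it did so for 29. On simulated data with the spread of these arrays, the replicate-block fit recovered 18%, 54% and 94% of genes shifted by 0.25, 0.5 and 1 (50 genes each), and the fit without a block 2%, 36% and 86%. A further 50 genes were shifted by 2 in the same data, and both fits recovered 100% of them. Many shifted genes make the adjusted threshold easier to pass. In the real data these fits called 50 and 3 genes, so the recovered shares can overstate what the arrays would show, most of all without a block. A p above the threshold does not show that a gene stayed constant.

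The plasminogen activator system had both of its urokinase components slightly lower in every pair of arrays that shared a replicate number. Plau, which encodes urokinase, had log2 intensities of 11.11, 11.46, 11.82 and 11.87 in induced cells, against 11.45, 11.50, 12.10 and 12.01 in uninduced cells (replicates 1 to 4). The groups overlapped, and slide 3 was high in both: its 4 arrays lay above the 4 arrays of slides 1 and 2. The pair differences were -0.34, -0.044, -0.27 and -0.13, the mean difference was -0.20 (SE 0.191 without a block), and the interval with the replicate block was -0.32 to -0.080 (adjusted p = 0.254 with limma). Plaur, the receptor that holds urokinase at the cell surface, had 10.65, 10.87, 10.88 and 10.83 in induced cells, against 10.80, 10.93, 11.16 and 11.04 in uninduced cells. Induced replicate 1 was the low array, and the groups overlapped. Its difference was -0.17 (SE 0.0948 without a block, lower in 4 of 4 pairs, limma adjusted p = 0.313 with the replicate block). Without uninduced replicate 3 it was -0.11. Plat, tissue plasminogen activator, went the other way, with 10.09, 10.32, 10.16 and 10.48 in induced cells, against 9.98, 10.18, 10.13 and 10.21 in uninduced cells. Induced replicates 2 and 4 lay above all uninduced arrays, and induced replicates 1 and 3 inside the uninduced range. Its difference was 0.14 (SE 0.101 without a block, higher in 4 of 4 pairs, limma adjusted p = 0.552 with the replicate block). Plasminogen itself (Plg) was above background on all 8 arrays and differed by 0.090 (SE 0.129). None of these differences was called. Without induced replicate 1, which unpairs its partner, the differences were -0.046 for Plau and, without induced replicate 4, 0.065 for Plat.

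**Figure D2:**
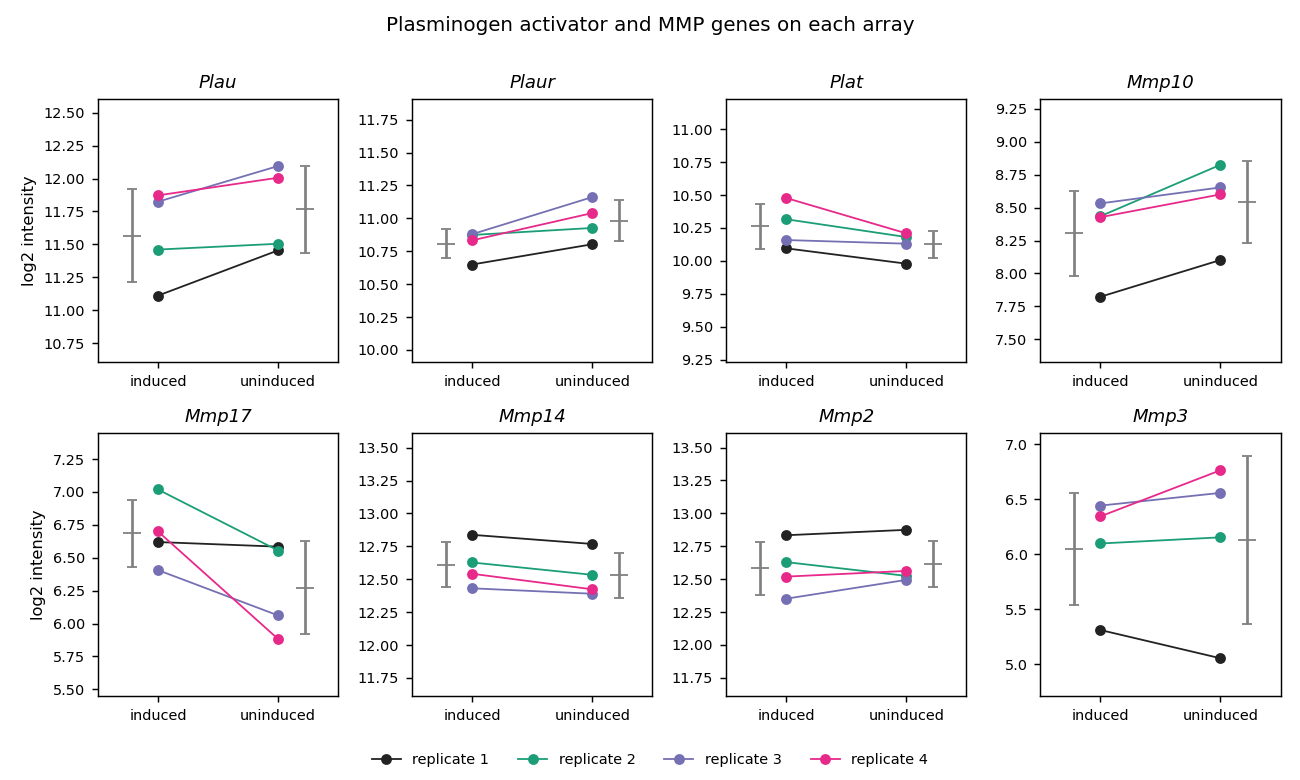
Normalized log2 intensity (vertical axis, each panel on its own range) of 3 plasminogen activator and 5 Mmp genes in induced (left) and uninduced (right) cells. Each coloured line joins the arrays of 1 replicate number, and grey bars are the mean ± SD of 4 arrays; the lines of Plau, Plaur and Mmp10 slope up towards uninduced cells in 4 of 4 pairs and those of Plat, Mmp17 and Mmp14 slope down.

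The stromelysins and collagenases are secreted metalloproteases that cultured mesenchymal cells are known to switch on under growth factors and cytokines. Mmp10 (stromelysin-2) had 7.82, 8.43, 8.53 and 8.43 in induced cells, against 8.10, 8.83, 8.65 and 8.60 in uninduced cells. Replicate 1 was the low pair in both groups, and the group ranges overlapped. The pair differences were -0.28, -0.39, -0.12 and -0.17. Their mean was -0.24 (SE 0.188 without a block, limma adjusted p = 0.289 with the replicate block). Without induced replicate 1 it was -0.081. Mmp3 (stromelysin-1) had 5.31, 6.10, 6.44 and 6.34 in induced cells, against 5.05, 6.15, 6.56 and 6.76 in uninduced cells, above background on 4 induced and 3 uninduced arrays. It ranged over 1.37 log2 units between the means of the 4 replicate numbers, against a group difference of -0.083 (SE 0.359, lower in 3 of 4 pairs). Mmp13 (collagenase-3) averaged 8.48 ± 0.48 in induced and 8.47 ± 0.33 in uninduced cells (SD, n = 4 each), a difference of 0.012. Mmp10, Mmp3 and Mmp13 each had their lowest values in replicate 1, in both groups.

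The proximal promoters of these genes hold a motif that the selection by name did not use. The bases 130 to 1 upstream of a transcript start are given for Mmp10, Mmp3, Mmp13 and Plaur, and for Adam10 as a member without the motif (RefSeq, GRCm38.p6, gene strand, 5′ to 3′). Capitals mark matches to TGANTCA, a loose form of TGAGTCA or TGACTCA, the site of AP-1, the Fos and Jun transcription factor.
Mmp10 (chr9:7502212-7502341, plus strand): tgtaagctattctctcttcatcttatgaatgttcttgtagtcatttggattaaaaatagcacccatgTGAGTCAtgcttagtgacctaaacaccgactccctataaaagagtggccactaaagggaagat
Mmp3 (chr9:7445692-7445821, plus strand): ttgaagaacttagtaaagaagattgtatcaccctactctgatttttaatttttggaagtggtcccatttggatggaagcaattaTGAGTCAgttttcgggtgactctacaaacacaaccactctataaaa
Mmp13 (chr9:7272384-7272513, plus strand): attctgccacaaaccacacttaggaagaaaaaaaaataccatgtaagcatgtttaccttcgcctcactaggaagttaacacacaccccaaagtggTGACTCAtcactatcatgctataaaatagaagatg
Plaur (chr7:24462353-24462482, plus strand): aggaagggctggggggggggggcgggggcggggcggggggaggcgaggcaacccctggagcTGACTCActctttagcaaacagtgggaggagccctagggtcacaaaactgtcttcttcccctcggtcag
Adam10 (chr9:70678852-70678981, plus strand): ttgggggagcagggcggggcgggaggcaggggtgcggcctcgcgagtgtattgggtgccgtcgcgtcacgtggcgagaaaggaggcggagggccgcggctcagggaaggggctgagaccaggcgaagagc
The match lay at bases 63 to 57 before the start in Mmp10, 46 to 40 in Mmp3, 35 to 29 in Mmp13 and 69 to 63 in Plaur. Mmp10, Mmp3 and Mmp13 also hold TATAAA between the AP-1 match and the start, with no overlap of the matches. The Plaur and Adam10 windows begin at a RefSeq transcript start that is not the first base of the gene. Promoters were given for 22 of the 41 measured members, in 25 windows. On both strands of the 250 bases before the start, TGANTCA was in 20% of these windows, in 29.2% of 24 windows of members not measured and in 6.75% of all 32851 windows. The matches of measured members read TGAGTCA or TGACTCA. Those of Adam20, Adam25 and Mmp20, which were not measured, read TGAATCA, and the share over all windows also admits any middle base. The 3 shares therefore do not compare AP-1 sites alone. Mmp10, Mmp3 and Mmp13 are family members whose windows lie near each other on chr9, so their matches are not independent. The fifth measured member with a match was Adam19, at bases 131 to 125. AGGAAG, a site of PEA3-type Ets factors, was in 40%, 41.7% and 29.5% of these 3 sets of windows, and TATAAA in 16%, 25% and 12.4%. Plau had no promoter entry. The 5 genes with an AP-1 match differed between the groups by -0.24 (Mmp10), -0.17 (Plaur), -0.085 (Adam19), -0.083 (Mmp3) and 0.012 (Mmp13), with 0 of them called. A match is a run of letters, and binding was not measured.

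The membrane-type metalloproteases Mmp14, Mmp16, Mmp17 and Mmp24 and the gelatinases Mmp2 and Mmp9 were above background on all 8 arrays. Mmp14 (MT1-MMP), which cleaves collagen at the cell surface and activates the Mmp2 precursor, had 12.84, 12.63, 12.43 and 12.54 in induced cells, against 12.77, 12.53, 12.39 and 12.42 in uninduced cells. Each pair was slightly higher when induced, and replicate 1 was the high pair. The difference was 0.081 (SE 0.107, 95% interval with the replicate block -0.018 to 0.18), and 0.0045 without induced replicate 1 or 0.16 without uninduced replicate 1. Mmp2 (gelatinase A) had 12.83, 12.63, 12.35 and 12.52 in induced cells, against 12.87, 12.52, 12.49 and 12.56 in uninduced cells. The groups overlapped and the difference was -0.031 (SE 0.115, lower in 3 of 4 pairs). When arrays were scaled to a common median it was 0.013, so Mmp2 has no settled direction. Mmp17 (MT4-MMP), held in the membrane by a lipid anchor, had 6.62, 7.02, 6.41 and 6.70 in induced cells, against 6.58, 6.55, 6.06 and 5.88 in uninduced cells. The uninduced arrays of slide 3 were low, and 2 uninduced arrays lay inside the induced range. The pair differences of Mmp17 were 0.035, 0.46, 0.34 and 0.82, with the largest in replicate 4. Their mean was 0.42 (SE 0.195 without a block, 1.33-fold, limma adjusted p = 0.289 with the replicate block and 0.77 in the slide-block fit). Without replicate 4 the replicate-block difference was 0.28. With all arrays it was 0.21 in the authors' matrix, where a larger constant added before logs shrinks differences of dim genes. Mmp9 (gelatinase B), which macrophages also make, averaged 8.45 ± 0.26 in induced and 8.43 ± 0.29 in uninduced cells (SD, n = 4 each), a difference of 0.018. The other measured members of the family, Mmp11, Mmp16, Mmp19, Mmp23 and Mmp24, differed by -0.050 to 0.076.

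Adam10, the sheddase known to cut ephrins, was dim but above background on all 8 arrays at 1 probe, and its other probe was above background on none. Its log2 intensities were 5.42, 5.51, 5.24 and 5.60 in induced cells, against 5.53, 5.54, 5.31 and 6.0 in uninduced cells. Each induced array was below its partner, and uninduced replicate 4 was the highest of the 8. The pair differences were -0.11, -0.026, -0.070 and -0.40, and the mean was -0.15 (SE 0.161, 95% interval -0.51 to 0.20; with the replicate block -0.40 to 0.095, limma adjusted p = 0.786). Without uninduced replicate 4 the difference was -0.016. The signal lies near the offset of 16 that was added before taking logs, and with an offset of 50 the difference was -0.09.

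Adam17, the main sheddase of EGF receptor ligands and tumour necrosis factor, had 8.70, 8.73, 8.42 and 8.40 in induced cells, against 8.71, 8.48, 8.30 and 8.33 in uninduced cells. The 4 arrays of slide 3 were below the 4 of slides 1 and 2, and the groups overlapped. The difference was 0.11 (SE 0.128, higher in 3 of 4 pairs), with 0.053 (without induced replicate 2) to 0.19 (without uninduced replicate 1) when 1 array was left out. A dimmer probe, detected on 2 induced and 2 uninduced arrays, gave 0.049. Adam9, another membrane protease with shedding activity, had 9.86, 9.88, 10.21 and 9.74 in induced cells, against 9.87, 9.68, 10.12 and 10.37 in uninduced cells. Pair 4 was lower by 0.63 and pair 1 by 0.012 in induced cells, and pairs 2 and 3 were higher. Its difference was -0.090 (SE 0.152), and without replicate 4 it was 0.091 in the replicate-block fit. Adam19, known for its part in heart valve formation, had 11.41, 11.30, 11.33 and 11.18 in induced cells, against 11.42, 11.44, 11.47 and 11.24 in uninduced cells. All 4 pairs were slightly lower when induced, with a difference of -0.085 and an interval of -0.19 to 0.020 with the replicate block, and -0.14 to -0.044 without uninduced or induced replicate 4. Adam12, made in muscle and mesenchyme precursors, had 6.92, 7.09, 7.01 and 7.19 in induced cells, against 7.34, 7.08, 7.0 and 7.17 in uninduced cells. Uninduced replicate 1 was the high array, and the other 3 pairs differed by at most 0.028. A dimmer Adam12 probe, above background on 3 induced and 4 uninduced arrays, was lower in 4 of 4 pairs, with a difference of -0.41 (limma adjusted p over all probes = 0.486 with the replicate block). Adam15 had 9.35, 9.41, 8.95 and 8.96 in induced cells, against 9.28, 9.35, 9.06 and 9.13 in uninduced cells, with both pairs of slide 3 lower and the pairs of slides 1 and 2 higher. The difference was -0.036 (SE 0.13), and its 2 dimmer probes gave 0.12 and -0.098.

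**Figure D3:**
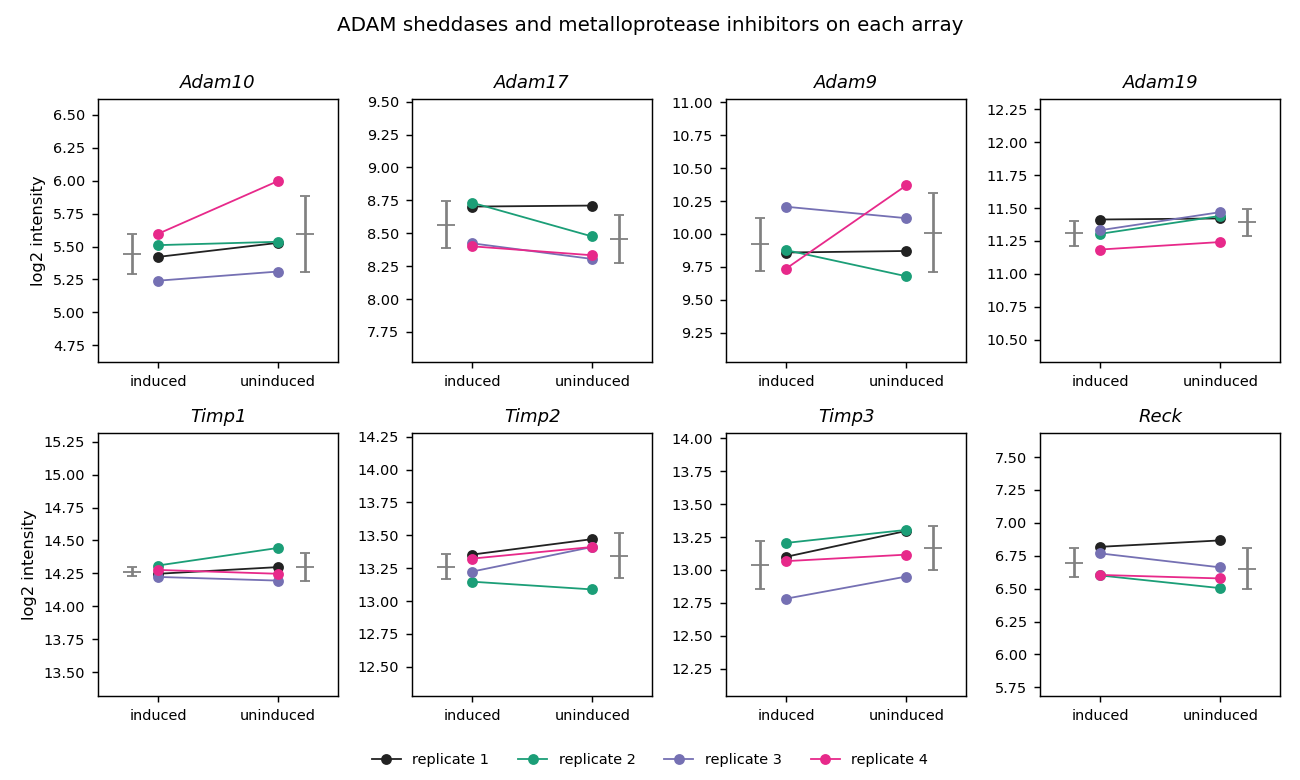
Normalized log2 intensity (vertical axis, each panel on its own range) of 4 Adam genes, 3 Timp genes and Reck in induced (left) and uninduced (right) cells. Lines join the arrays of 1 replicate number and grey bars are the mean ± SD of 4 arrays; in each panel the groups overlap, and Adam10, Adam19 and Timp3 slope up towards uninduced cells in 4 of 4 pairs.

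None of the 5 other measured Adam genes was called. Adam4, a gene known from mouse testis, had 5.13, 5.17, 5.03 and 5.26 in induced cells, against 5.42, 5.22, 5.44 and 5.65 in uninduced cells, above background on 1 induced and 3 uninduced arrays. All 4 pairs were lower when induced and the groups overlapped, since induced replicate 4 (5.26) was above uninduced replicate 2 (5.22). Its difference of -0.29 (SE 0.127) had an unadjusted p of 0.0473 and an adjusted p of 0.9999 (limma, no block). In the authors' matrix, with its larger constant before logs, the difference was -0.11. Adam39 was above background on 1 induced and 4 uninduced arrays and differed by -0.18. Adam23, a neuronal family member without protease activity, Adam28 and Adam30 differed by 0.050, 0.060 and -0.082.

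The ADAMTS family holds the secreted proteases that cut aggrecan, versican and other matrix proteoglycans. Adamts1 had 5.72, 5.79, 5.91 and 6.03 in induced cells, against 6.01, 5.82, 5.87 and 6.26 in uninduced cells. The groups overlapped, and the difference was -0.13 (SE 0.14, lower in 3 of 4 pairs), and -0.034 without uninduced replicate 4. A dimmer Adamts1 probe, above background on 3 induced and 2 uninduced arrays, gave 0.22, and the mean of the probes 0.047. Adamts6 had 5.43, 5.38, 5.57 and 5.75 in induced cells, against 5.28, 5.18, 5.34 and 5.37 in uninduced cells, above background on 4 induced and 2 uninduced arrays. It was the 1 member whose groups did not overlap (1.19% of all genes), by a margin of 5.38 against 5.37. The difference was 0.24 (SE 0.125 without a block, higher in 4 of 4 pairs, limma adjusted p = 0.601 with the replicate block). In the authors' matrix, with its larger constant before logs, it was 0.09. The aggrecanase genes Adamts4 and Adamts5 differed by 0.085 and -0.021, and Adamts15 by -0.21 (SE 0.228, lower in 3 of 4 pairs). Adamts7, Adamts10, Adamts12, Adamts18 and the ADAMTS-like genes Adamtsl3 and Adamtsl4, whose products lack the protease domain, lay between -0.10 and 0.10.

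The 4 measured inhibitors differed by -0.13 to 0.045, and none was called. Timp1 had 14.25, 14.31, 14.22 and 14.28 in induced cells, against 14.30, 14.44, 14.19 and 14.25 in uninduced cells. Its difference was -0.032 (SE 0.0669), with an interval of -0.14 to 0.074 in the replicate-block fit. Timp2, which also helps Mmp14 to activate the Mmp2 precursor, had 13.35, 13.15, 13.22 and 13.32 in induced cells, against 13.47, 13.09, 13.41 and 13.41 in uninduced cells, and replicate 2 was the low pair in both groups. The difference was -0.084 (SE 0.0915, lower in 3 of 4 pairs), and leaving out 1 array gave -0.17 (without uninduced replicate 2) to -0.042 (without uninduced replicate 1). Timp3, which binds to the matrix and also inhibits Adam17, had 13.10, 13.21, 12.78 and 13.07 in induced cells, against 13.30, 13.30, 12.95 and 13.12 in uninduced cells. Each induced array was below its partner while the groups overlapped. Its difference was -0.13 (SE 0.107 without a block, with the replicate block interval -0.23 to -0.026 and limma adjusted p = 0.49). Without induced replicate 3 it was -0.043. Its 2 dimmer probes, above background on all 8 arrays, gave 0.062 and 0.029, each higher in 2 of 4 pairs, so the Timp3 probes disagree in sign. Reck, a membrane-anchored inhibitor of metalloproteases, had 6.82, 6.60, 6.77 and 6.60 in induced cells, against 6.87, 6.50, 6.66 and 6.58 in uninduced cells. The groups overlapped and the difference was 0.045 (SE 0.129).

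Across the group, 7 of 41 members were lower in all 4 pairs (17.1%), beside 8.42% of all genes. They were Plau, Plaur, Mmp10, Timp3, Adam10, Adam19 and Adam4. In 4 pairs of 4, Plat, Mmp14, Mmp17 and Adamts6 were higher (9.76%), beside 7.56% of all genes. Members share arrays and are not independent, so these shares are a description. Of 10 members with more than 1 measured probe, the probes of Adam15, Adamts1, Adamts5, Adamts12, Mmp16 and Timp3 differed in sign.

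The members' spread over replicate numbers was set against the group difference. The SD of the 4 replicate means was larger than the group difference for 34 of 41 members (82.9%), beside 83.2% of all genes. With the group kept in the model, 25 of 41 members (61.0%) differed between replicate numbers (limma F test, adjusted p under 0.05), beside 44.2% of all genes. These were 11 of 12 Mmp, 3 of 11 Adam, 6 of 11 Adamts or Adamtsl, 2 of 4 Timp or Reck and 3 of 3 plasminogen activator genes. The range of the replicate means was widest for Mmp3 (1.37), Mmp13 (0.86) and Adamts4 (0.85) among the 41. All 4 arrays of slide 3 were above the arrays of slides 1 and 2 for Mmp3 (by 0.87 on average), Plau (0.57) and Mmp16 (0.36), and below them for Adamts15 (-0.62), Mmp23 (-0.55), Adamts4 (-0.54), Mmp11 (-0.44), Adamtsl4 (-0.40), Adam15 (-0.32), Adam28 (-0.31) and Adam17 (-0.29). The separation of slide 3 was examined for the members alone, so it is not known whether they differ in it from other genes. Replicates 1 and 2 each had a slide of their own, so that for them slide and replicate cannot be told apart.

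**Figure D4:**
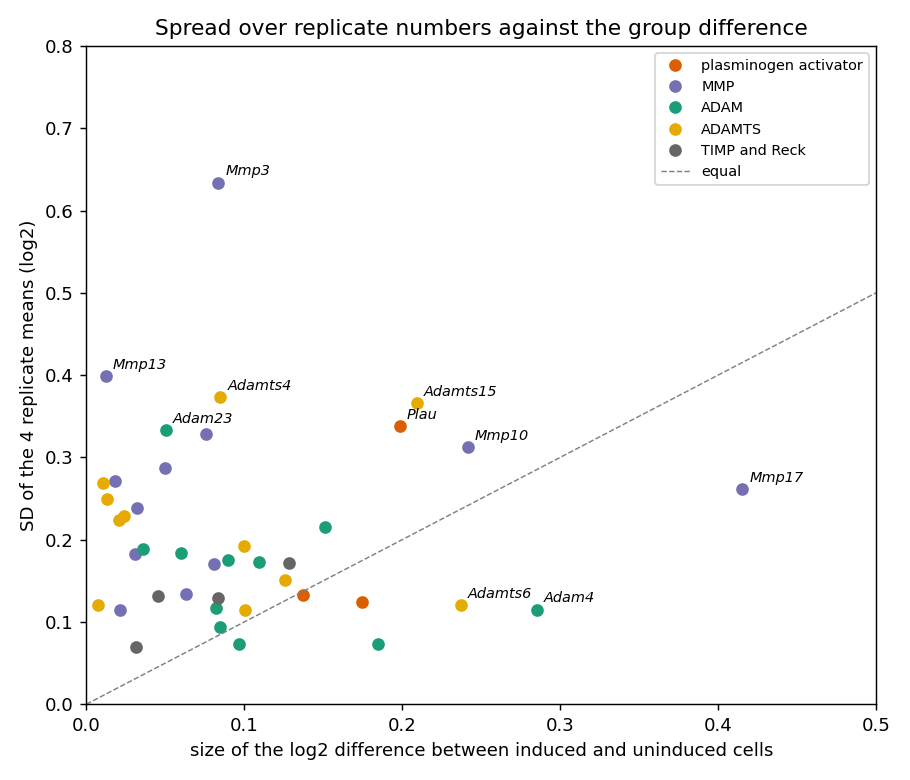
SD of the means of the 4 replicate numbers (vertical axis, log2) against the size of the group difference (horizontal axis, log2) for the 41 measured members, coloured by family. Points above the dashed line have an SD of replicate means larger than the group difference, as 34 members do. An SD and a difference are unlike measures, so the line is no test. Mmp3 is the highest and Mmp17 the farthest to the right.

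Other genes of pericellular proteolysis were counted from lists chosen by function. Of 28 other extracellular proteases 20 were measured, 12 with a higher and 8 with a lower mean, and 0 were called in any of the 3 fits. Carboxypeptidase E (Cpe) and the IGF binding protein protease Pappa had the smallest p there, with differences of -0.23 (lower in 4 of 4 pairs) and -0.28 (lower in 3 of 4 pairs). The pro-protein convertase Pcsk6 differed by -0.11. Pappa passed in the replicate-block fit once replicate 4 was left out, with a difference of -0.46. Of 19 other protease inhibitors 11 were measured, 5 higher and 6 lower, with 0 called. Serpini1 (neuroserpin), which inhibits tissue plasminogen activator, differed by -0.30, with 5.57, 5.64, 5.95 and 5.63 in induced cells, against 6.12, 6.40, 5.86 and 5.59 in uninduced cells. It was lower in pairs 1 and 2 and higher in pairs 3 and 4. Serpinb2, an inhibitor of urokinase, had 7.76, 9.21, 9.74 and 9.69 in induced cells, against 7.93, 9.73, 10.01 and 9.84 in uninduced cells, and replicate 1 was the low pair in both groups. The Serpinb2 difference was -0.28 (SE 0.505 without a block, lower in 4 of 4 pairs, limma adjusted p = 0.133 with the replicate block). Of 17 partners of Adam10 and Adam17 and intramembrane proteases 11 were measured, 3 higher and 8 lower, with 0 called. Among these, the tetraspanin Tspan17 differed by 0.19, the gamma-secretase subunit Aph1a by -0.14 and Rhbdf1, a carrier of Adam17, by -0.087. Of 16 cell surface receptors and cofactors 13 were measured, 3 higher and 10 lower, with 0 called and differences of -0.16 (Igf2r) to 0.08 (Cd63).

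The substrates shed by Adam10 and Adam17 held the 1 called gene of these lists. The lists were chosen with earlier results of these data known, and the slide and replicate blocks called 0.128% and 0.532% of all genes. Of 28 substrates 17 were measured, 4 with a higher and 13 with a lower mean, a split that was not tested. Hbegf, an EGF receptor ligand released by shedding, had 9.56, 9.61, 9.74 and 9.90 in induced cells, against 10.18, 10.31, 10.32 and 10.36 in uninduced cells. The 4 induced arrays lay below the 4 uninduced ones, and 1.19% of all genes had groups that did not overlap. With either block Hbegf fell by 0.59 on the log2 scale (1.51-fold). Limma gave an adjusted p of 0.00645 in the slide-block fit, 6.69e-05 in the replicate-block fit and 0.148, which is no call, without a block. Notch1, a receptor cut by Adam10, differed by -0.34 (lower in 4 of 4 pairs, limma adjusted p = 0.126 with the replicate block). Among the ephrins of the list, Efna5 differed by -0.13, Efnb2 by -0.072 and Efnb1, the gene of the ligand applied, by -0.065 (SE 0.133).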

How the data were processed

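Total RNA was measured on single-channel Illumina arrays in 4 induced and 4 uninduced samples. The deposited table holds mean bead intensity per probe and array, linear and not normalized between arrays, per the file headers, and a detection p-value per probe; GenomeStudio 1.6.0 is named in the submitters' processing notes. The authors' processed matrix, background-subtracted intensity with a median of 4.4 on every array and a scaling not given in the sources used here, served as an alternative (Spearman correlation with the same array's raw column 1, with other arrays at most 0.919).

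Repeated probe identifiers (11) were averaged, leaving 46632 probes, of which 29976 carried 1 gene name, 10 several and 16646 none. Signals were corrected and quantile normalized with neqc (offset 16, limma 3.58.1, R 4.3.3), which gave log2 values of the deposited intensity. Probes detected (p under 0.05) on 4 or more arrays were kept (16514), limma (lmFit, eBayes with a trend, two-sided) was fitted on them, and each of 9396 genes was taken at its brightest kept probe, with Benjamini-Hochberg adjustment over these genes. The difference is induced minus uninduced. The comparison was made without a block. Alternatives were slide or replicate number as a block, median scaling, no background correction, the authors' matrix, another offset, no or a stricter filter, the mean of probes, no variance trend, slides apart, and leaving out arrays or pairs. The numbers pair the arrays: deviations from the group means correlated at 0.591 to 0.716 across genes for arrays of the same number and at -0.538 to 0.30 for others. Levels of different probes are not compared.

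On simulated data, the 3 fits called 4 to 8 unchanged genes of 9396 in all. Members and lists were chosen with earlier results of these data known. Values on every array are given for a fixed set of main genes and for the largest rises and falls (up to 5 each) with 1 sign in all 4 pairs; list genes named are called ones or up to 3 with the smallest p. Plg, Serpinb2, Efnb1, Efnb2, the values of Mmp3 on every array and members named in counts were added after their values were seen, as were the F test of replicate numbers and the promoter motifs. Figures were drawn with matplotlib 3.10.9.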

Additional observations from a re-analysis of the deposited data

Results flagged for a closer look

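Among 40 sets of 4 arrays (20 genes, each in 2 groups), 2 held an array far from the other 3; chance flags about 1 set in 20. Mmp10 was at 7.82 on induced replicate 1, with the other induced arrays at 8.43 to 8.53. Timp2 was at 13.09 on uninduced replicate 2, with the other uninduced arrays at 13.41 to 13.47. The partner arrays of the same replicate number, at 8.10 for Mmp10 (uninduced replicate 1) and 13.15 for Timp2 (induced replicate 2), were also the lowest of their groups.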

How the results depend on the processing

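The count of called members stayed at 0 under all 24 alternatives (smallest adjusted p 0.164). Called genes over the whole array numbered 3 without a block, 12 in the slide-block fit and 50 in the replicate-block fit. They numbered 1 with median scaling, without the variance trend and on slides 1 and 2 alone, 0 on slide 3 alone (204 at an unadjusted p under 0.05, limma), 1 to 2 when an array was left out, and 34, 23, 36 and 24 with the replicate block without replicate 1, 2, 3 and 4. In the other lists the slide block and the replicate block called 1 gene each, leaving out an array 0, and the replicate block without a pair 1 to 2. The median difference of members was -0.090 on slide 3 alone, and it turned on slides 1 and 2 alone (0.024), with the mean of probes (0.0074), without induced replicate 3 (0.0068) and with the replicate block without replicate 4 (0.0090). Adam10 kept its sign in the 23 alternatives that measured it (-0.25 to -0.016; the stricter filter left it out). Of the 20 main genes 13 kept 1 sign throughout. Slides 1 and 2 alone turned Adam15 (0.067), Adam9 (0.093) and Mmp2 (0.032). Slide 3 alone turned Adam12 (0.015) and Timp1 (0.029). Median scaling turned Mmp2 (0.013), and the mean of probes turned Adamts1 (0.047). The replicate block without a pair turned Adam12 (0.013, without replicate 1), Timp1 (0.0022, without replicate 2), Mmp2 (0.0067, without replicate 3), Adam15 (0.0082) and Adam9 (0.091, both without replicate 4). Leaving out an array gave -0.12 to 0.038 for Adam15, -0.20 to 0.030 for Adam9, -0.11 to 0.056 for Mmp2, -0.0043 to 0.12 for Reck and -0.065 to 0.017 for Timp1. None of these values was called, and the cause was not tested. Near background the differences were smaller with an offset of 50 (Mmp17 0.30, Adam4 -0.15, Adamts6 0.13). The median difference over all genes was 0.011 with median scaling. Dim probes limit the result: 7 of 41 members were above background on only part of the arrays.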
